A study of Mus musculus with 9 samples.

Results

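Steroid dehydrogenases and reductases of the liver were followed in ob/ob mice given tauroursodeoxycholic acid (TUDCA), a bile acid conjugated with taurine. The 10 listed genes, Hsd3b2, Hsd3b3, Hsd3b5, Hsd17b2, Hsd17b6, Hsd17b11, Hsd17b13, Hsd11b1, Srd5a1 and Akr1c6, were chosen by name with measured values in view, above all the lower signal of Hsd3b3 in OB-TUDCA mice. Of these, 9 had a probe set annotated with that symbol alone, out of 19938 genes measured in this way, and Srd5a1 was not analysed here. Because the choice used the difference between OB-TUDCA and OB-control arrays, that difference is given as a description and without a test.

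Expression was measured in liver RNA of 9 mice on Affymetrix Mouse Gene 1.0 ST arrays, 3 in each of 3 groups. N-control were C57BL/6J wildtype mice, and OB-control were ob/ob mice of the strain B6.V-Lepob/J. Both were given tap water. OB-TUDCA were ob/ob mice of that same strain given 500 mg/kg of TUDCA. In every group the gavage was given 2 times a day for 3 weeks, the diet was normal chow, the mice were male and 6 weeks old at purchase, and the mice had fasted for 8 h before the liver was removed. The study had 6 mice in each group, and the labels give an array for 3 of them. The ob/ob mouse lacks leptin in the whole body and from birth, so the ob/ob groups differ from N-control mice in appetite, weight and hormones and not in the liver alone. A wildtype group with TUDCA was not analysed here.

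Steroid dehydrogenases and reductases move hydrogen between a cofactor and a steroid, which can switch hormones between active and inactive forms. The liver clears androgens, estrogens, progestins and glucocorticoids in this way before they are hydroxylated or conjugated and excreted. In rodents several of these enzymes differ between the sexes under the control of the pituitary pattern of growth hormone, and Hsd3b5 is a classical gene of male mouse liver.

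The Hsd3b genes encode 3β-hydroxysteroid dehydrogenases. Hsd3b2 and Hsd3b3 oxidize and isomerize steroids, whereas Hsd3b5 encodes a relative that works as a ketosteroid reductase. On mouse assembly GRCm38.p6, as annotated by RefSeq, these genes stand next to each other on chromosome 3 in the order Hsd3b4, Gm10681, Hsd3b5, Hsd3b2, Hsd3b3, Hsd3b6 and Hsd3b1. The RefSeq promoter windows of the 3 measured members, from 250 bases before to 50 bases after the annotated start, are shown because these neighbours had different patterns over the arrays. All lie on the minus strand, at chr3:98645485-98645784 for Hsd3b5, chr3:98724494-98724793 for Hsd3b2 and chr3:98763079-98763378 for Hsd3b3. Capitals mark a match, on either strand, to CAAAGTNCA, a motif of the type bound by Hnf4a.
Hsd3b5: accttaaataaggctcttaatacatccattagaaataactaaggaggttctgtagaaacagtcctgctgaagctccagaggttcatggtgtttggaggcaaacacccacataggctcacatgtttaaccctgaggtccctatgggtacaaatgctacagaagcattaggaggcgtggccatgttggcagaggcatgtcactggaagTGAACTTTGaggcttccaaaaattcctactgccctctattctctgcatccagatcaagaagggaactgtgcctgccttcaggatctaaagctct
Hsd3b2: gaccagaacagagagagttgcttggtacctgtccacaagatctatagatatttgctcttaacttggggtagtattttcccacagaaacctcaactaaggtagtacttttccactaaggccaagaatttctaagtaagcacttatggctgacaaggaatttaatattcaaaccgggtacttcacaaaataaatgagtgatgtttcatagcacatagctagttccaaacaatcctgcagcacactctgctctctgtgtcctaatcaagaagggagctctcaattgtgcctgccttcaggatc
Hsd3b3: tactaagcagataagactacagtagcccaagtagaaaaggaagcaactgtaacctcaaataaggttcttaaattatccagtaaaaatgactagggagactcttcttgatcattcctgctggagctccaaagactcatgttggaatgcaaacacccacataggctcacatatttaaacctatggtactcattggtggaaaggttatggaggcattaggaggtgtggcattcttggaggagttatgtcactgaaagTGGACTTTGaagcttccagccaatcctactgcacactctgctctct

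The match begins at position -44 in Hsd3b5 and at position 5 in Hsd3b3, counting from the annotated start, and no match was found in the Hsd3b2 window. It was held by 3 of the 11 promoter windows listed for the members, of which 2 belong to Hsd3b3, and by 1.41% of all 32851 mouse windows of this length. In a local alignment, bases -250 to -1 of Hsd3b5 matched bases -199 to 48 of Hsd3b3 at 75.8% of 252 aligned columns, so the annotated starts lie at different places of a shared stretch. The best alignment of Hsd3b5 with Hsd3b2 held 58.6% identical columns of 304, and that of Hsd3b2 with Hsd3b3 covered 67 columns at 70.2%. The window of Hsd11b1, on chromosome 1, aligned with that of Hsd3b5 at 57.1% of 294 columns. A share of 58.6% over such a length therefore does not by itself mark shared sequence. A second annotated start of Hsd3b3 has a window 99.3% identical to the one shown.

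The other motifs were searched on both strands of the same windows. TTCNNNGAA, the type bound by Stat5, was in 0 of the 11 members' windows and in 8.3% of all windows, and ACANNNTGT, a steroid receptor type, was in 0 and in 6.85%. TGTTTAC, of the Foxa type, was found once among the members, at position -138 of Hsd11b1, and in 3.65% of all windows. The inverted repeat of the Fxr type was in 0 windows of the members and in 0.0396% of all windows. These counts say only which letters stand in short windows.

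The mean log2 signal of 8 hepatocyte markers was 12.4 to 12.7 on every array, and none of the 8 was below 10.04 on any. Over the 9 arrays, the mean was 3.52 to 3.74 for 8 of 10 markers of adrenal cortex and gonad, 3.83 to 4.06 for 7 of 8 of kidney and 4.12 to 4.27 for 6 of 7 of adipocytes. Each list can be compared between arrays but not with another list, since probe sets differ in brightness. The mean of 9 of 12 pancreatic acinar markers was 10.9 in N-control replicate 2 and 4.15 to 4.71 on the other arrays, so the calls of members that were lost without that array are given with their values. Correlation coefficients between arrays of the same group were 0.981 to 0.990 over all probe sets. In bulk tissue, fewer cells of a type and less RNA per cell cannot be told apart.

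**Figure D1:**
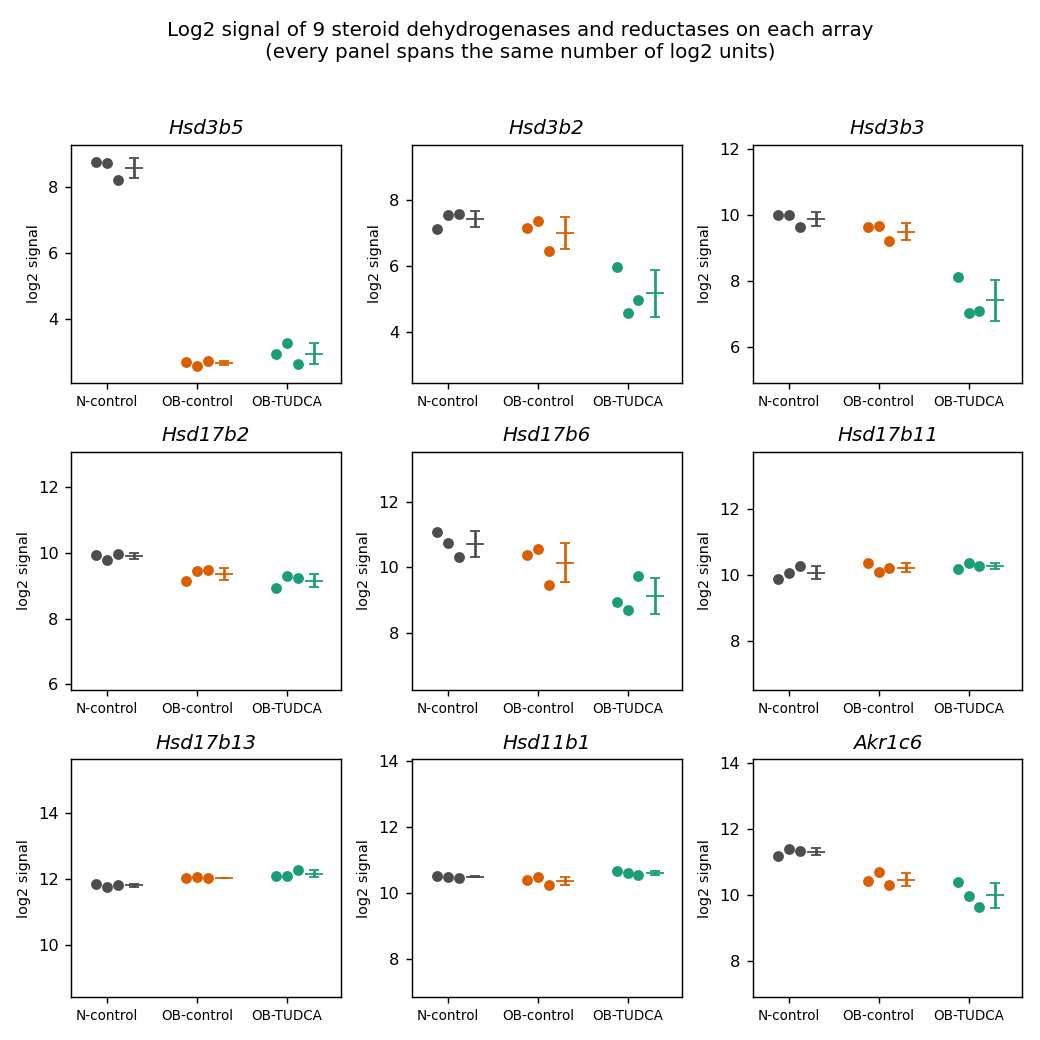
Log2 signal of the 9 measured enzymes on each array, with points for the 3 arrays of a group and, beside them, the mean and SD. Hsd3b5 is low on all 6 ob/ob arrays, Hsd3b2 and Hsd3b3 are lowest on the 3 OB-TUDCA arrays, and the panels span equal ranges so that steps can be set side by side, while levels of different genes cannot.

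Hsd3b3 was lower with TUDCA than in both untreated groups. Even on its lowest array, 77.2% of all genes had a lower signal. Its log2 signal was 9.986, 9.999 and 9.63 in N-control mice, 9.62, 9.64 and 9.20 in OB-control mice and 8.12, 7.01 and 7.07 in OB-TUDCA mice. The 3 OB-TUDCA arrays lay below all other arrays, and N-control and OB-control arrays overlapped. The difference between OB-TUDCA and OB-control was -2.09 on the log2 scale (standard error 0.27), or 4.25-fold lower, which is the value the gene was chosen on. Against N-control mice, Hsd3b3 fell by 2.47 (5.54-fold, adjusted p = 0.00318 from limma). That comparison, here and for the other members below, uses the OB-TUDCA arrays used in the choice, so its p-values are not independent of it. Between OB-control and N-control the difference was -0.38 (adjusted p = 0.636 from limma).

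Hsd3b2, its neighbour, had the same order of groups. The log2 signal was 7.14, 7.55 and 7.57 in N-control mice, 7.17, 7.38 and 6.46 in OB-control mice and 5.96, 4.57 and 4.99 in OB-TUDCA mice. The OB-TUDCA arrays again lay below all others, while N-control and OB-control overlapped. The difference between OB-TUDCA and OB-control was -1.83 (standard error 0.35), or 3.56-fold. On its lowest array 43.0% of all genes had a lower signal, and on each N-control array at least 79.2% did. The size of its folds therefore rests in part on signals in the lower part of the scale. Hsd3b2 fell by 2.25 in OB-TUDCA against N-control mice (4.75-fold, adjusted p = 0.0112 from limma). Without N-control replicate 2, the array with acinar signal, the difference was -2.18 and no longer passed (adjusted p = 0.0502 from limma).

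Hsd3b5 separated lean from ob/ob livers, with or without TUDCA. Its log2 signal was 8.73, 8.73 and 8.20 in N-control mice, 2.67, 2.57 and 2.72 in OB-control mice and 2.92, 3.25 and 2.63 in OB-TUDCA mice. No ob/ob array came near a lean array, and the ob/ob groups overlapped each other. Hsd3b5 fell by 5.90 in OB-control against N-control mice (standard error 0.18, 59.8-fold, adjusted p = 4.18e-07 from limma). In OB-TUDCA against N-control mice it fell by 5.62 (49.2-fold, adjusted p = 8.14e-07 from limma). OB-TUDCA and OB-control differed by 0.28. At most 18.3% of all genes had a lower signal than Hsd3b5 on any ob/ob array, so the size of these folds rests on signals near the low end of the scale.

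The related genes limit what the Hsd3b probe sets can tell apart. The family members are close in sequence, probe sequences were not used here, and signal shared between relatives could not be separated. A pair of probe sets annotated with Gm10681, Hsd3b5 and Hsd3b4 together, which carry identical values, averaged 4.66 in N-control mice, 3.67 in OB-control mice and 3.33 in OB-TUDCA mice. Hsd3b1, the form of adrenal and gonad, stayed between group means of 2.67 and 2.74, and Hsd3b6 between 2.88 and 2.93. Hsd3b7, a more distant relative that acts in bile acid synthesis, had group means of 9.93 ± 0.28 in N-control mice, 9.64 ± 0.05 in OB-control mice and 8.89 ± 0.15 in OB-TUDCA mice (SD, n = 3). It fell by 1.03 in OB-TUDCA against N-control mice (adjusted p = 0.0066 from limma), and it differed by -0.28 between OB-control and N-control (adjusted p = 0.449). Of the 3 other family genes measured, it alone passed.

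Akr1c6, an aldo-keto reductase that forms testosterone from androstenedione, was stepwise lower over the groups. The log2 signal was 11.19, 11.40 and 11.33 in N-control mice, between 10.28 and 10.68 in OB-control mice, and 10.38, 9.96 and 9.62 in OB-TUDCA mice. All 6 ob/ob arrays were below the lean arrays, and the ob/ob groups overlapped. It fell by 1.32 in OB-TUDCA against N-control mice (standard error 0.18, 2.50-fold, adjusted p = 0.00682 from limma). The difference of -0.85 in OB-control mice, 1.80-fold, did not pass (adjusted p = 0.0732), but it passed with weights for arrays (adjusted p = 0.0307) and without OB-TUDCA replicate 1 or 3 (adjusted p = 0.0349 and 0.0442). In OB-TUDCA against OB-control the difference was -0.47.

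Hsd17b2, which inactivates testosterone and estradiol by oxidation, was lower by smaller steps. Its log2 signal was 9.91, 9.78 and 9.96 in N-control mice, 9.14, 9.44 and 9.47 in OB-control mice and 8.92, 9.29 and 9.22 in OB-TUDCA mice. Lean and ob/ob arrays did not overlap, and the ob/ob groups did. Hsd17b2 fell by 0.74 in OB-TUDCA against N-control mice (standard error 0.12, 1.67-fold, adjusted p = 0.0152 from limma), a call lost without N-control replicate 1 (adjusted p = 0.069). The difference in OB-control mice was -0.54 (adjusted p = 0.103), which passed with weights for arrays (adjusted p = 0.0498). Between the ob/ob groups it was -0.21.

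Hsd17b6, an enzyme of androstanediol oxidation and epimerization, varied within each group, with SDs of 0.39 to 0.59. The log2 signal was 11.08, 10.75 and 10.31 in N-control mice, 10.39, 10.57 and 9.47 in OB-control mice and 8.96, 8.70 and 9.74 in OB-TUDCA mice. OB-TUDCA replicate 3 lay above OB-control replicate 3, so these groups overlapped, while all OB-TUDCA arrays were below the lean ones. The difference between OB-TUDCA and OB-control was -1.01 (standard error 0.34), or 2.01-fold, and that between OB-control and N-control was -0.57 (adjusted p = 0.562 from limma). Hsd17b6 fell by 1.58 in OB-TUDCA against N-control mice (2.99-fold, adjusted p = 0.0407 from limma). That call was lost when any of 6 arrays was left out, with adjusted p from 0.0523 without N-control replicate 3 to 0.157 without N-control replicate 1. With the acinar array left out it was 0.112.

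Hsd17b13 and Hsd17b11, neighbours on chromosome 5 whose proteins sit on lipid droplets, differed little between groups. Hsd17b13 had a log2 signal of 11.84, 11.77 and 11.80 in N-control mice, 12.03, 12.04 and 12.03 in OB-control mice and 12.10, 12.09 and 12.28 in OB-TUDCA mice. The 3 groups did not overlap, in this rising order, although the whole range was small. Hsd17b13 rose by 0.35 in OB-TUDCA against N-control mice (standard error 0.08, 1.28-fold, adjusted p = 0.0393 from limma), and this call was lost when any of 8 arrays was left out (adjusted p of up to 0.116, without N-control replicate 2) and with each array's median subtracted (adjusted p = 0.0517). It differed by 0.23 in OB-control against N-control mice (adjusted p = 0.232) and by 0.12 between the ob/ob groups. Hsd17b11 lay between 9.87 and 10.37 on all arrays, with differences against N-control of 0.15 in OB-control mice and 0.21 in OB-TUDCA mice (adjusted p = 0.669 and 0.394).

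Hsd11b1, which regenerates active glucocorticoid inside the liver cell, had a log2 signal of 10.51, 10.50 and 10.47 in N-control mice, 10.39, 10.48 and 10.24 in OB-control mice and 10.66, 10.61 and 10.54 in OB-TUDCA mice. The OB-TUDCA arrays were the highest of the 3 groups without overlap. The difference between OB-TUDCA and OB-control was 0.23 (standard error 0.08). Against N-control mice, OB-control differed by -0.12 (adjusted p = 0.594 from limma) and OB-TUDCA by 0.11 (adjusted p = 0.525).

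**Figure D2:**
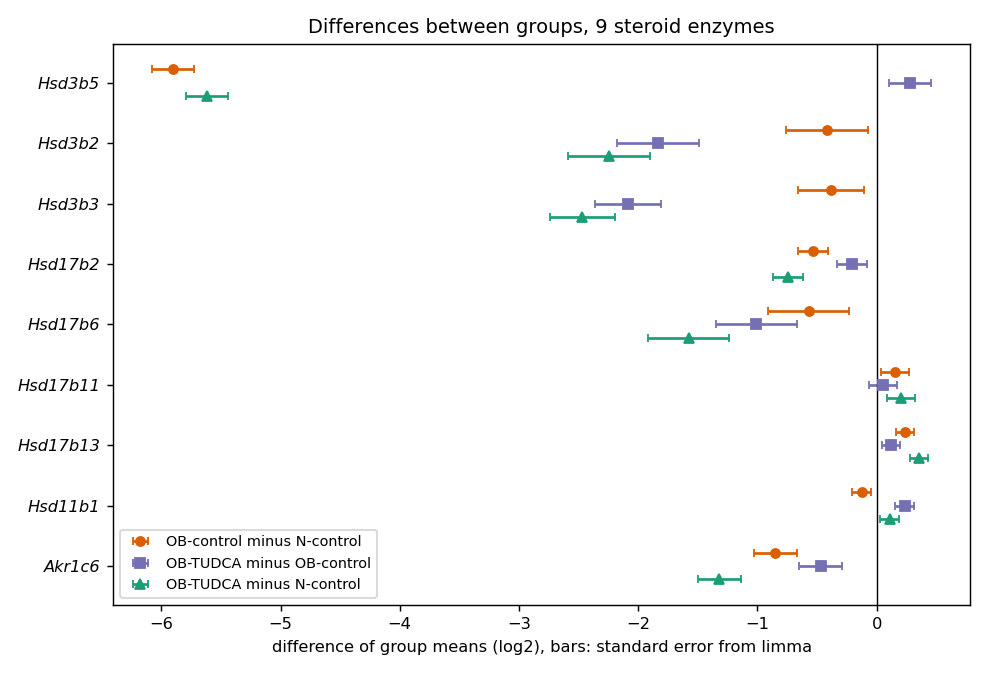
Differences of group means in log2 units for the 9 enzymes (horizontal axis), with a symbol for each of the 3 comparisons and bars for the standard error from limma. Hsd3b5 has its difference between lean and ob/ob livers, at -5.90 and -5.62, and Hsd3b3 and Hsd3b2 have theirs between OB-TUDCA and either untreated group.

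In OB-control against N-control mice, which asks how the ob/ob genotype stands to lean liver, Hsd3b5 was the 1 member of 9 that passed the threshold of an adjusted p under 0.05. It fell, as did 0.492% of all genes, and 0 members rose, against 0.456% of all genes. These shares rest on 98 lower and 91 higher genes, which became 33 to 139 and 27 to 127 when an array was left out, fewest without N-control replicate 1. Before adjustment, limma also put Hsd17b2 and Akr1c6, both lower, and Hsd17b13, higher, under 0.05. The share of all genes under that unadjusted limit was not counted, so nothing is read from these 3. Over the 9 members 7 means were lower and 2 higher, with a median difference of -0.41 against 0.02 over all genes. The comparison shares its OB-control arrays with the difference used in choosing the genes.

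In OB-TUDCA against N-control mice, 6 members passed lower (Hsd3b2, Hsd3b3, Hsd3b5, Hsd17b2, Hsd17b6 and Akr1c6) and 1 higher (Hsd17b13), while Hsd17b11 and Hsd11b1 did not pass. Over all genes 1.89% passed lower and 1.35% higher, which is 377 and 269 genes, and 125 to 390 and 68 to 400 when an array was left out, fewest without OB-TUDCA replicate 2. The median difference of the members was -1.32, and that of all genes was 0.04. Without N-control replicate 1 or N-control replicate 2, 4 members passed, with Hsd3b3, Hsd3b5 and Akr1c6 among them each time. The OB-TUDCA arrays are also those on which the members were chosen, so the count is not independent of the choice.

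Between OB-TUDCA and OB-control mice, 5 members had a lower and 4 a higher mean. Hsd3b2, Hsd3b3 and Hsd17b6 were at least 1.5 times lower, as were 1.3% of all genes. The arrays did not overlap for 2 members that were lower (Hsd3b2 and Hsd3b3) and 2 that were higher (Hsd17b13 and Hsd11b1), where 6.53% and 7.26% of all genes did so. Nothing is read from these counts, since this contrast chose the genes.

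Other genes of steroid metabolism and action were taken from 7 lists with 67 genes outside the members, of which 56 were measured. The lists were drawn up with earlier results of these data known. In OB-control against N-control mice 2 rose and 5 fell, and in OB-TUDCA against N-control mice 2 rose and 12 fell. Over all genes, 0.456% rose and 0.492% fell in the first comparison, and 1.35% rose and 1.89% fell in the other. The calls lay among the hydroxylating and conjugating enzymes, the aldo-keto reductases and Hsd3b7. For Cyp7b1, Sult2a8, Cyp2d9 and Sult1e1, the difference between OB-TUDCA and OB-control is also given, without a test.

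Sult1e1, the estrogen sulfotransferase, had the largest measured difference of these lists. Its log2 signal was 2.69, 2.92 and 3.17 in N-control mice, 8.42, 10.22 and 8.97 in OB-control mice and 8.90, 7.42 and 7.08 in OB-TUDCA mice. Against N-control it rose by 6.28 in OB-control mice (limma, adjusted p = 0.000598, standard error 0.52) and by 4.87 in OB-TUDCA mice (adjusted p = 0.00287). On a lean array as few as 8.35% of all genes had a lower signal, so the size of both differences rests on signals near the low end of the scale. Cyp17a1, which hydroxylates and cleaves steroid precursors of androgens, rose by 2.14 and 1.95 (adjusted p = 0.000524 and 0.000877). Both genes had higher signals on every ob/ob array than on any lean array.

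Cyp7b1, an oxysterol and steroid hydroxylase, fell by 3.22 in OB-control mice and fell by 3.45 in OB-TUDCA mice, both against N-control (adjusted p = 0.000485 and 0.000284 from limma). Sult2a8, a sulfotransferase, had differences of -2.39 and -2.55 (adjusted p = 0.000621 and 0.00056 from limma), and Cyp2d9, a testosterone hydroxylase of male liver, of -1.29 and -1.65 (adjusted p = 0.000558 and 0.000127). Ugt2b38, a glucuronosyltransferase, fell by 0.73 in OB-control mice (adjusted p = 0.0269), a call lost when any of the 6 N-control and OB-control arrays was left out (adjusted p of up to 0.113, without N-control replicate 2). Ugt2b5 fell by 1.02 in OB-TUDCA mice (adjusted p = 0.0094). The differences between OB-TUDCA and OB-control were -0.24 for Cyp7b1, -0.17 for Sult2a8, -0.36 for Cyp2d9 and -1.40 for Sult1e1, whose standard error was 0.52. Of the 13 genes measured in this list, 2 rose and 4 fell in OB-control mice, and 2 rose and 8 fell in OB-TUDCA mice.

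The aldo-keto reductase relatives of Akr1c6, 2 of which flank it on chromosome 13 (Akr1c12 and Akr1c20), were lower where they passed. Akr1c12 fell by 0.64 in OB-control mice (adjusted p = 0.0346 from limma) and by 0.81 in OB-TUDCA mice (adjusted p = 0.0068), both against N-control. Akr1c14, a 3α-hydroxysteroid dehydrogenase, and Akr1c13 fell by 0.88 and 0.66 in OB-TUDCA mice (adjusted p = 0.0341 and 0.0305). Each of these calls, except that of Akr1c12 in OB-TUDCA mice, was lost when any of 6 arrays was left out, and without N-control replicate 2 the adjusted p was 0.128 for Akr1c12 in OB-control mice and 0.104 for both Akr1c14 and Akr1c13 in OB-TUDCA mice. Of the 9 other steroid reductases measured, 1 fell in OB-control mice and 3 fell in OB-TUDCA mice, and none of the others passed.

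In the remaining lists 0 genes passed in either comparison by limma. Hsd17b10 was the most different of 9 other 17β-hydroxysteroid dehydrogenases (0.45 in OB-control mice, adjusted p = 0.387), and 2 genes of that list were higher in OB-control mice at an unadjusted p under 0.05, with 0 in OB-TUDCA mice. Slc37a4, the glucose-6-phosphate carrier that feeds the cofactor supply of Hsd11b1, was the most different of 4 genes (0.40 in OB-TUDCA mice, adjusted p = 0.184). Dhrs3 was that of 9 Rdh and Dhrs genes (-0.67 in OB-TUDCA mice, adjusted p = 0.0666). Among 9 receptors and carriers it was Nr3c2, the mineralocorticoid receptor (-1.03 in OB-TUDCA mice, adjusted p = 0.0565). At an unadjusted p under 0.05, these last 3 lists held 0, 1 and 2 higher genes in OB-control mice, and in OB-TUDCA mice 1 higher of the cofactor genes, 1 lower of the Rdh and Dhrs genes, and 1 higher and 2 lower of the receptors and carriers. Nothing is read from the unadjusted counts, since the share of all genes under that limit was not counted.

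**Figure D3:**
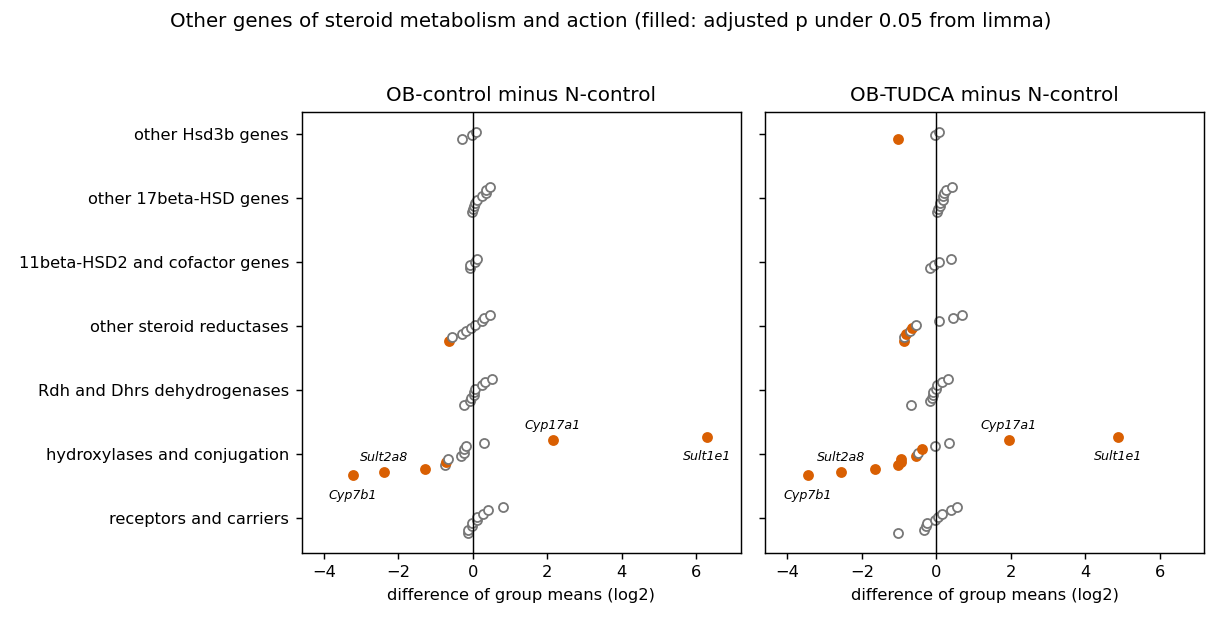
Differences of group means in log2 units for 56 other genes of steroid metabolism and action, by list, in OB-control (left) and OB-TUDCA (right) against N-control mice, with filled points for an adjusted p under 0.05 from limma. The filled points lie in the Hsd3b, reductase and hydroxylase or conjugation lists, from Cyp7b1 at -3.22 to Sult1e1 at 6.28 on the left, whose lean signal was near the low end of the scale.

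Of the marker lists, hepatocyte markers alone had a gene past the threshold. The most different markers of other cell types were Cyp11b1 for adrenal cortex (0.25 in OB-control mice, adjusted p = 0.616 from limma), Kap for kidney (0.19 in OB-TUDCA mice, adjusted p = 0.299) and Lipe for adipocytes (0.28 in OB-control mice, adjusted p = 0.464). Among hepatocyte markers Hnf4a, a transcription factor, rose by 0.58 in OB-TUDCA against N-control mice (adjusted p = 0.0451), and its part in the values of the enzymes was not tested. The other 7 of the 8 hepatocyte markers had lower means in that comparison, and none of them passed. In OB-control against N-control mice, 7 hepatocyte means were lower and 1 was higher, and none passed. Cpa1 of the acinar list differed by -2.68 in OB-control mice (adjusted p = 0.603), with the high signal on N-control replicate 2.

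The genes whose pattern over the 9 arrays was most like that of Hsd3b3 were sought among 552 genes with an SD of at least 0.5. They were Bco2, a carotenoid-cleaving enzyme (Pearson r = 0.983), Apol7a (0.970), Car5a, a mitochondrial carbonic anhydrase (0.968), Naaladl2 (0.963) and Kdr, a receptor of endothelial cells (0.962). Bco2 averaged 7.79 in N-control mice, 7.45 in OB-control mice and 6.33 in OB-TUDCA mice. All 5 had their lowest group mean in OB-TUDCA mice, which follows from the choice by correlation. These are descriptions over 9 arrays that share 3 groups.

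The genes most like Hsd3b5 had their step between lean and ob/ob livers, which again follows from the choice by correlation. They were Slco1a1, an organic anion transporter (r = 0.994), Cyp1a2 (0.982), the complement component C6 (0.974), Sdr9c7 (0.972) and Cyp7b1 (0.969). Slco1a1 averaged 10.25 in N-control mice, 2.98 in OB-control mice and 3.63 in OB-TUDCA mice. Sdr9c7, which stands next to Hsd17b6 on chromosome 10, had 8.36, 6.17 and 6.30, while the means of Hsd17b6 itself were 10.71, 10.14 and 9.13. For both genes the arrays of the ob/ob groups overlapped, so their order between those groups is not compared.

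**Figure D4:**
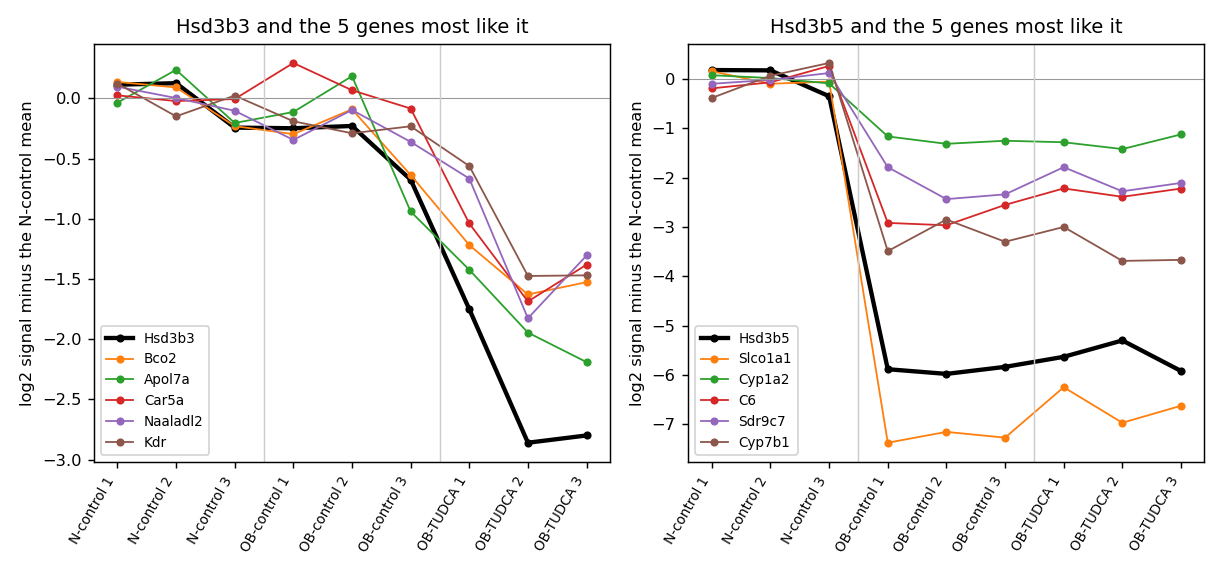
Log2 signal minus the N-control mean on each of the 9 arrays for Hsd3b3 (left) and Hsd3b5 (right), each in black with the 5 genes of highest Pearson r in colour. The genes on the left are lowest on the OB-TUDCA arrays, and those on the right drop between the lean and all ob/ob arrays. Both follow from the choice by correlation.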

How the data were processed

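The deposited values are log2 signals per probe set, which the authors had made from the scans with RMA (background correction, quantile normalization and probe summary) in Affymetrix Expression Console (version not given in the sources used here). They were used without further normalization. Of 35556 probe sets, 21789 were paired with 1 gene symbol and averaged per symbol to 19938 genes (999 genes had several), while 1621 with several symbols and 12146 unnamed here were left out of gene values. Arrays give no read depth, and their number, 3 for each group, limits the precision.

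The 3 groups follow the labels. Group means of all 9 arrays were fitted in R 4.3.3 with limma 3.58.1 (6 residual and 3.33 prior degrees of freedom, no filter on signal), with two-sided tests. P-values were adjusted over the 19938 genes by Benjamini-Hochberg, and the threshold was 0.05. The fit was tested on simulated data. Because the labels do not say whether the arrays of a group stand for separate cages or litters, p-values measure only the spread between these samples. An exact permutation test of 3 against 3 arrays cannot go below 0.1 and was not used.

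The members and gene lists were chosen with earlier results of these data known. Named genes were all members, the Hsd3b family, in each other list the genes past the threshold (at most 4 for each direction, by size) or else the most different one, and the 5 genes most correlated with Hsd3b3 and with Hsd3b5. Promoter sequences, gene order and names came from RefSeq tables of GRCm38.p6, in which Hsd17b2 had no promoter entry, and were aligned with Biopython 1.88. The R package data.table (version 1.17.8), Python 3.11.15 and matplotlib 3.10.9 served for tables and figures.

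Alternatives were a filter on low signal, repeated quantile normalization, median subtraction, a trended robust prior, array weights, a fit of only the 2 groups compared, separate probe sets, a replicate block, and omission of each array.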

Additional observations from a re-analysis of the deposited data

How the results depend on the processing

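The differences of the 9 members kept their direction under all alternatives in the tested comparisons. Of 153 recomputed differences in OB-TUDCA against N-control, 132 stayed on their side of the threshold and 21 no longer passed, all of them for Hsd3b2, Hsd17b2, Hsd17b6 or Hsd17b13. In OB-control against N-control 149 stayed, and 4 passed that had not (Akr1c6 and Hsd17b2). With weights for arrays, 3 members passed in OB-control against N-control in place of 1, and leaving out an array gave 1 to 2. Over all genes, the weights gave 170 higher and 188 lower calls in that comparison in place of 91 and 98. In OB-TUDCA against N-control, 7 members passed, 4 to 6 when an array was left out, and 5 with only the 2 groups compared. The fit of only the 2 groups gave 127 higher and 218 lower calls over all genes in place of 269 and 377. Of the other steroid pathway genes, 7 passed in OB-control against N-control (5 to 7 when an array was left out) and 14 in OB-TUDCA against N-control (11 to 17). Without N-control replicate 1 or, equally, N-control replicate 2, the array with pancreatic acinar signal, 5 and 11 of them passed, with Akr1c12 and Ugt2b38 lost in the first comparison and Akr1c13, Akr1c14 and Cyp2c29 in the other. Against OB-control, the OB-TUDCA mean was lower for 5 members (5 to 6 when an array was left out), and at least 1.5 times lower for 3. Over all genes, the 269 higher and 377 lower calls in OB-TUDCA against N-control became 70 and 144 on leaving out N-control replicate 1, 85 and 160 for N-control replicate 2, 68 and 125 for OB-TUDCA replicate 2 and 112 and 213 for OB-TUDCA replicate 3. In OB-control against N-control, 91 and 98 calls fell by more than 1.5 times on leaving out N-control replicate 1 or 2, OB-control replicate 1 or 3, or OB-TUDCA replicate 2. The cause was not tested.

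Arrays of the same replicate number correlated at -0.08 to 0.21 after removal of the group means, with 4 of 9 pairs over 0.1. For replicate 3 the values were 0.21, 0.21 and 0.11. Whether the numbers stand for pairs or batches was not tested. With the replicate number as a block, 1 member passed in OB-control and 5 in OB-TUDCA against N-control, Hsd17b6 (adjusted p = 0.0582 from limma) and Hsd17b13 (adjusted p = 0.0525) being lost. Over all genes, the block gave 430 higher and 441 lower calls in OB-TUDCA against N-control, where the main fit gave 269 and 377. In OB-control against N-control it gave 97 and 92, where the main fit gave 91 and 98. Arrays give no depth, and signals near the low end of the scale, such as Hsd3b5 in ob/ob livers, limit the size of folds.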
